A study of Homo sapiens with 18 samples.

Results

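The genes described here are 10 of the 57448 genes in the count matrix, all of them parts of retinoid metabolism and signalling: DHRS3 and RDH10, ALDH1A1 and ALDH1A3, CRABP2, CYP26B1, the receptors RARA, RARB and RARG, and the responder gene RARRES1. They were taken from the matrix by matching Ensembl identifiers to symbols, and the set was chosen by the fall of the DHRS3 count in GPS2 knockout cells, which was among the largest of all genes. The comparison of knockout with parental cells is therefore given for these genes as a description, without a test. RNA-seq was done on 18 libraries, 3 in each of 6 groups, and the libraries held from 23419198 to 39319910 counted reads. All libraries came from MDA-MB-231, a triple negative breast cancer cell line, cultured in high-glucose DMEM with fetal bovine serum.

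WT libraries came from parental cells that had been neither edited nor transduced. KO1 and KO2 came from lines in which GPS2, a corepressor subunit and inhibitor of the ubiquitin-conjugating enzyme UBC13, had been targeted by CRISPR-Cas9 with different sgRNA sets. Each was a puromycin-selected lentiviral pool, not a clone. The myrAKT libraries came from MDA-MB-231 cells that express a myristoylated, membrane-anchored AKT1 delivered by retrovirus. In the KO1+MK and KO2+MK groups the same knockout lines had received 10 µM MK2206, an allosteric AKT inhibitor, for 4 h. No WT or myrAKT library received MK2206, and no library came from empty-vector or vehicle-only cells. The effect of knockout therefore cannot be told apart from that of transduction and selection. Likewise, the effect of membrane-anchored AKT1 cannot be told apart from that of transduction, nor the effect of MK2206 from that of vehicle and handling. Nothing in the labels states whether replicates were separate cultures, and p-values measure the spread between these libraries, which may be technical.

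GPS2 itself had 150 to 178 counts in the WT libraries, 163 to 172 in KO1, 206 to 236 in KO2, 174 to 200 in myrAKT, 123 to 170 in KO1+MK and 164 to 183 in KO2+MK. Scaled to a common library size, the KO1 libraries overlapped those of WT and all KO2 libraries were above them. GPS2 RNA was thus not detectably lower in the knockout libraries. Since an edit need not lower the RNA, these counts do not check the knockout labels. The study examined GPS2 in the lines by western blot and genomic PCR, which are not part of these data. AKT1, which carries the signal of the transgene, averaged 231 CPM (counts scaled to a common library size by TMM normalization) in myrAKT and 135 CPM in WT, and the difference passed the test (log2 fold change 0.77, adjusted p = 4.27e-09). All 7 genes on a list for this line exceeded 1 CPM in every group. The 6 markers of the hormone receptor and epithelial states that the line is known to lack (ESR1, PGR, CDH1, EPCAM, KRT20 and GATA3) summed to 15.7 to 17.7 CPM in WT and 7.56 to 7.89 CPM in myrAKT, and 2 of them exceeded 1 CPM in WT and 3 in myrAKT. Most of this was EPCAM, at 11.8 to 12.3 CPM in WT and 3.16 to 3.27 CPM in myrAKT, and GATA3, which averaged 3.32 and 3.21 CPM, whereas PGR and CDH1 reached at most 0.137 CPM in any library. Of 6 leukocyte markers at most 1 exceeded 1 CPM in a group, and their sum was at most 2.36 CPM in any library. The 5 stromal markers summed to 17.5 to 21.5 CPM in WT and 5.21 to 6.58 CPM in myrAKT, nearly all of it PDGFRB, while DCN and COL1A2 had 0 counts in WT. The 5 endothelial markers summed to 17.6 to 19.4 CPM in WT and 25.9 to 28.5 CPM in myrAKT, whereas CDH5, one of them, averaged 3.07 CPM in WT and 0.362 CPM in myrAKT. The stromal sums were also below WT in the knockout libraries, at 12.6 to 14.2 CPM without and 11.2 to 13.6 CPM with the drug, and so were the endothelial sums, at 12.6 to 14.2 and 12.5 to 15.6 CPM. The sum of the 6 markers the line is known to lack was 13.7 to 15.7 CPM in untreated and 9.08 to 12.1 CPM in treated knockout libraries, and the 7 genes on the list for this line summed to 5712 to 5898 CPM in WT, 5875 to 6057 in untreated and 4880 to 5536 in treated knockout libraries. The part of these markers in the results was not tested.

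Retinol is oxidised to retinal by retinol dehydrogenases such as RDH10, and retinal is oxidised to retinoic acid by aldehyde dehydrogenases of the ALDH1A family. DHRS3 runs the first step backwards by reducing retinal to retinol, and its gene is induced by retinoic acid in many tissues, so it is known as a feedback brake on the pathway. CRABP2 carries retinoic acid to the nucleus, CYP26 enzymes break it down, and the receptors RARA, RARB and RARG, paired with retinoid X receptors, bind retinoic acid response elements in DNA and regulate transcription.

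Promoter windows of RefSeq genes (GRCh38.p14, 250 bases before to 50 bases after a start) were used for 9 of the 10 genes, in 16 windows. RDH10 was not searched. The 250 bases before the start are printed for the genes on which the results turn. DHRS3, ALDH1A3 and CRABP2 are shown because they were the 3 genes lower in myrAKT cells than in WT by at least 1.5-fold. RARB is shown because it alone of the 9 genes searched held a direct repeat of the receptor-binding hexamer. The windows were searched on both strands for direct repeats of the consensus hexamer AGGTCA, the variant spelled AGTTCA, the variant spelled GGGTCA or the variant spelled GGTTCA, in any combination, with a spacer of 1, 2 or 5 bases, where repeats may overlap one another. Capitals mark the hexamers of a repeat or, where there was no repeat, any single hexamer.
DHRS3 (minus strand, chr1:12618211-12618460): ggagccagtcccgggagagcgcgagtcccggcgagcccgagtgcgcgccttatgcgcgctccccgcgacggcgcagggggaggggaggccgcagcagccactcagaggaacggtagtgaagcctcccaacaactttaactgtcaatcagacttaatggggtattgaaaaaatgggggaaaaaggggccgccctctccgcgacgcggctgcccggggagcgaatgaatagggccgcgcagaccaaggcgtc
ALDH1A3 (plus strand, chr15:100879581-100879830): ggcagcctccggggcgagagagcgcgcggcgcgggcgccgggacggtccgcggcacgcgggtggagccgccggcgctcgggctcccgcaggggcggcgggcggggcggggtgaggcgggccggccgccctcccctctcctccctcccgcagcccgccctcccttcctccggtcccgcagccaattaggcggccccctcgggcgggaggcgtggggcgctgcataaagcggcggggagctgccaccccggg
CRABP2 (minus strand, chr1:156705785-156706034): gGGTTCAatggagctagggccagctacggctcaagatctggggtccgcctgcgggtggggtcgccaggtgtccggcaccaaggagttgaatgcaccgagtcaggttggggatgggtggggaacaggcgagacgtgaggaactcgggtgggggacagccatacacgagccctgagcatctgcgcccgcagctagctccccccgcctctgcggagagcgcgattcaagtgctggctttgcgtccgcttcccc
RARB (plus strand, chr3:25428013-25428262): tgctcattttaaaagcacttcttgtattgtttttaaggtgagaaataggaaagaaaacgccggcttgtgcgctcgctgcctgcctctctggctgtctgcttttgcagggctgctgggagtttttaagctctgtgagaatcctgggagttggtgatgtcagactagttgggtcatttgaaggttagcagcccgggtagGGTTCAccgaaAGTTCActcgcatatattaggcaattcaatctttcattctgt
In the RARB window the repeat had a spacer of 5 bases and ran from base -53 to base -37 relative to the start, on the strand of the gene. Of 35116 RefSeq windows of 300 bases, 91 (0.259%) held a repeat with a spacer of 1, 2 or 5, and 31 (0.088%) held one with a spacer of 5. A single hexamer was present in 7 of the 16 windows of these genes, against 38.581% of all windows. The printed DHRS3 window held none, and neither did the printed ALDH1A3 window, whereas the CRABP2 window held 1. The 2 other DHRS3 windows held 1 hexamer each and no repeat. A match is a match of letters only, and the absence of one covers only these bases.

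Per length, the receptors RARG and RARA were the most abundant of these genes in WT, while the third receptor, RARB, was among the lowest. In WT, RARG averaged 14.1 ± 0.419 CPM per kb of exon (SD, n = 3), RARA 9.17 ± 0.397, CYP26B1 6.44 ± 0.189 and RDH10 5.65 ± 0.287 CPM per kb. CRABP2 followed at 4.27 ± 0.181 CPM per kb, ALDH1A3 at 3.47 ± 0.102 and DHRS3 at 0.897 ± 0.167. RARRES1 (0.176 CPM per kb) and RARB (0.138 CPM per kb) overlapped in the WT libraries, and each of the other neighbours in this order was separated without overlap. ALDH1A1 was last at 0.00638 CPM per kb. The order at the top differed in other groups. In KO2, CYP26B1 averaged 6.13 CPM per kb and RARG 5.42. CYP26B1 was the highest of these genes in KO1+MK (7.03, with RARG at 6.38 and RARA at 5.84). It was also highest in KO2+MK (7.78, with RARA at 5.37 and RARG at 4.78).

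**Figure D1:**
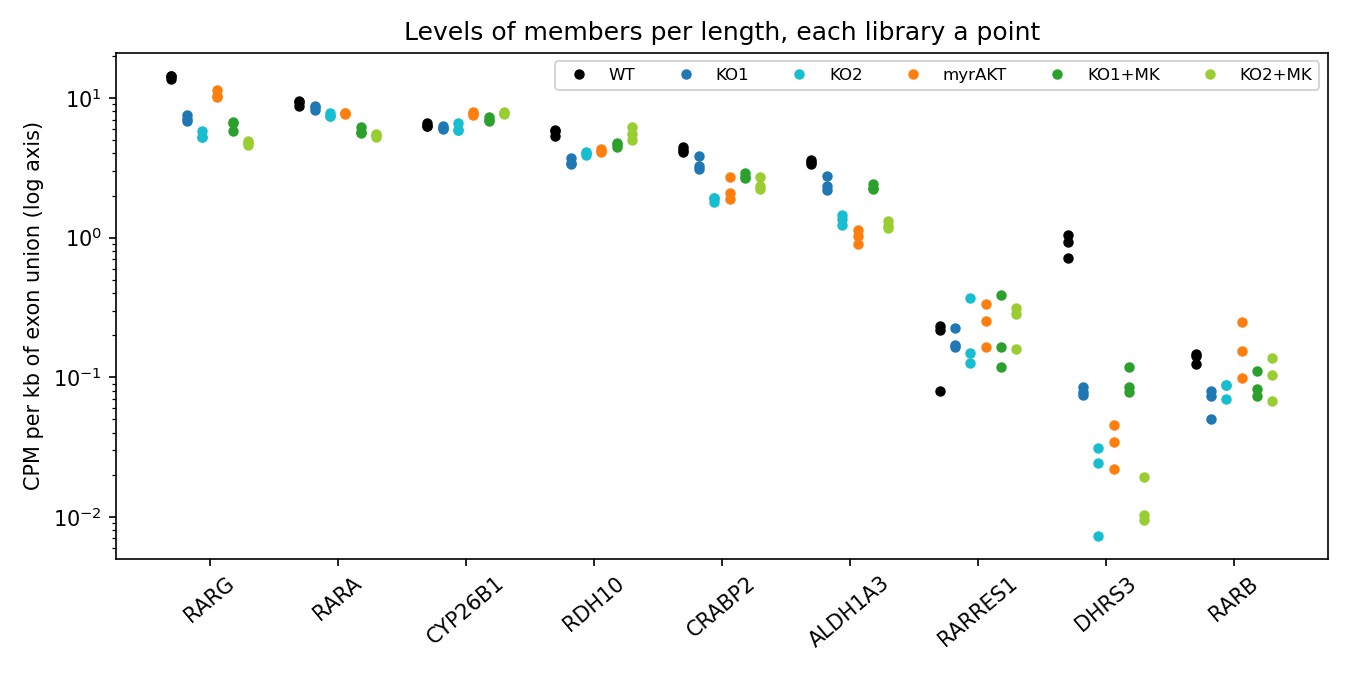
Level of 9 genes in each of the 18 libraries, as CPM per kb of exon union on a log axis, coloured by group. RARG is highest in WT at 14.1 CPM per kb, and DHRS3 is the gene with the widest gap between WT and the other groups; ALDH1A1, with 0 or 1 counts per library, is not drawn.

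DHRS3, the retinal reductase (chr1:12567910-12618210, hg38, minus strand, GENCODE release 44, as for the positions given for other genes), was counted almost only in WT. Its WT libraries held 86, 118 and 137 reads. The KO1 libraries held 10, 11 and 10 reads, the KO2 libraries 3, 1 and 4, and the myrAKT libraries 4, 5 and 3. With MK2206, KO1 held 10, 8 and 8 reads and KO2 held 2, 1 and 1. Every WT library was above every library of the other groups. Because DHRS3 reached 1 CPM in the WT libraries and in no other, it entered the tests through WT alone, which made a difference from WT likely in advance.

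On the CPM scale DHRS3 averaged 3.15 ± 0.587 in WT (SD, n = 3), 0.329 ± 0.0761 in KO1+MK, 0.279 ± 0.0171 in KO1, 0.120 ± 0.0413 in myrAKT, 0.0736 ± 0.0430 in KO2 and 0.0456 ± 0.0188 in KO2+MK. Libraries of KO1 and KO1+MK overlapped, and KO2 libraries overlapped those of myrAKT and of KO2+MK, while all KO1 libraries were above all myrAKT and KO2 libraries. A count of 3, the limit set by a count of 0, corresponded to between 0.0774 and 0.125 CPM depending on the library, so the levels in KO2, myrAKT and KO2+MK lay near the limit of detection. Since the knockout lines were pools, fewer DHRS3-expressing cells and less DHRS3 RNA per cell cannot be told apart.

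**Figure D2:**
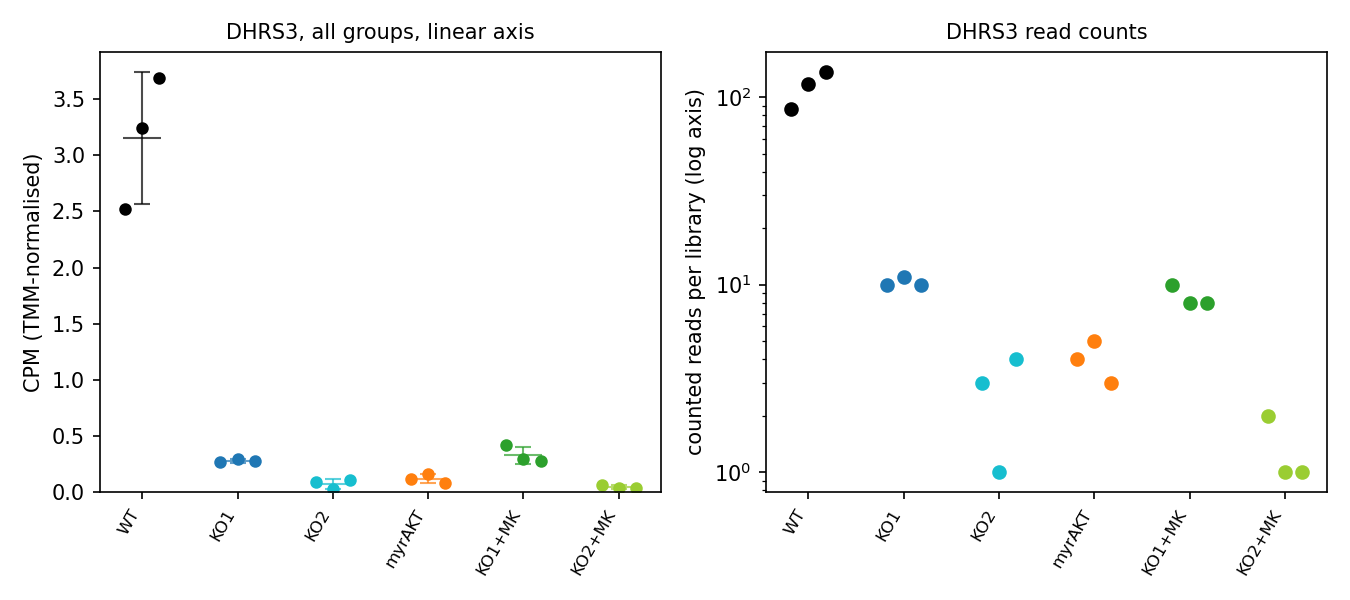
DHRS3 in the 18 libraries. Left, CPM on a linear axis, with the mean and SD of 3 libraries per group; right, counted reads on a log axis. WT libraries held 86 to 137 reads and all others 11 or fewer.

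The fall of DHRS3 against WT was the comparison that chose it. The fitted log2 difference was -4.15 for both knockout lines together, -3.50 for KO1 and -5.39 for KO2, and DHRS3 had the second lowest value among the 1339 genes called lower in the knockout libraries. As a ratio of summed, depth-scaled counts, WT exceeded KO1 by 11.3-fold (exact 95% interval 7.85 to 17.0) and KO2 by 43.7-fold (21.9 to 102). These intervals cover counting error only.

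DHRS3 was also lower in the cells with membrane-anchored AKT1, in libraries that the choice of genes did not use, although the 3 WT libraries were the same. The fitted log2 difference of myrAKT from WT was -4.72 (SE 0.306). Since DHRS3 entered the fit through WT alone, no p-value is given for it against WT. The ratio of summed counts was 27.2 (15.4 to 53.1). In the MK2206-treated knockout lines DHRS3 was also lower than in untreated WT, by 4.11 on the log2 scale (SE 0.397), and the count ratios were 9.76 (6.54 to 15.2) for KO1+MK and 69.2 (26.8 to 255) for KO2+MK.

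For MK2206 within the knockout lines, the untreated libraries belong to the comparison that chose DHRS3, so its change is given as a description. After 4 h of MK2206 the DHRS3 log2 change was 0.06 over both lines (95% interval -1.26 to 1.37). It was 0.24 in KO1 (-0.55 to 1.04) and -0.61 in KO2 (-2.28 to 1.07). Over so few reads these intervals were wide, and they do not show that the level stayed the same.

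Between the lines, the untreated libraries belong to the comparison that chose DHRS3, and their log2 difference of KO1 over KO2, 1.89 (SE 0.498), is given as a description. In treated libraries, which the choice of genes did not use, it was 2.70 (SE 0.559), with an adjusted p of 0.00476 that missed the threshold. The treated comparison was added after the values were seen and rests on 1 to 10 reads per library. Over the alternatives its adjusted p ran from 6.05e-04 to 0.0383, the highest being that of DESeq2, and it passed only with all 18 libraries in one fit (log2 difference 2.73).

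RDH10, the retinol dehydrogenase that makes retinal, was higher in both knockout lines after AKT inhibition, to an extent below 1.5-fold. WT libraries had 28.4, 31.2 and 30.8 CPM, KO1 17.9, 19.9 and 18.3, and KO2 21.3, 21.8 and 20.7. After MK2206 the values were 23.9, 25.0 and 25.2 CPM in KO1 and 26.7, 29.5 and 33.0 CPM in KO2, all above the untreated libraries of the same line. Those untreated libraries are also part of the comparison that chose the genes. The log2 difference of treated over untreated was 0.47 (SE 0.0806, adjusted p = 2.86e-04), with 0.42 in KO1 (adjusted p = 4.90e-05) and 0.50 in KO2 (adjusted p = 3.75e-05). These passed an adjusted p of 0.001 but not the 1.5-fold minimum that a call also required, and the pooled value rose to 0.00137 with a treated KO2 library left out. Treated knockout libraries were 0.15 below WT on the log2 scale (95% interval -0.36 to 0.05, adjusted p = 0.173).

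In myrAKT, RDH10 had 21.9, 22.9 and 22.0 CPM, all below WT. The log2 difference was -0.44 (SE 0.0578, adjusted p = 1.65e-05), again short of 1.5-fold. RDH10-AS1 shares 5.21% of the RDH10 exon bases on the opposite strand and had 16 to 45 counts, against 573 to 1143 for RDH10.

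ALDH1A3, which makes retinoic acid from retinal (chr15:100877714-100916626, plus strand), had the largest fall in myrAKT among the 8 tested genes after DHRS3. WT libraries had 19.1, 18.0 and 18.4 CPM, and myrAKT libraries 5.51, 6.06 and 4.82 CPM. The difference was -1.77 on the log2 scale (SE 0.0854, adjusted p = 7.39e-10), a 3.42-fold lower level, and the groups did not overlap. ALDH1A3-AS1 covers 32.15% of the exon bases of ALDH1A3 on the opposite strand, with 35 to 95 counts against 183 to 685. Without a stated strand setting the reads of the pair cannot be told apart.

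ALDH1A3 also separated the knockout lines. KO1 had 12.4, 14.8 and 11.7 CPM and KO2 had 7.19, 6.60 and 7.74 CPM, a log2 difference of 0.84 (SE 0.0907, adjusted p = 1.98e-06). In treated libraries KO1 had 11.9, 12.9 and 12.1 CPM and KO2 had 6.49, 7.02 and 6.27 CPM, a log2 difference of 0.89 (SE 0.0828, adjusted p = 1.92e-05). All KO1 libraries were above all KO2 libraries with and without the drug. MK2206 changed ALDH1A3 by -0.05 in KO1 (95% interval -0.24 to 0.14) and by -0.10 in KO2 (-0.30 to 0.09).

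Treated knockout libraries were lower than WT in ALDH1A3 by 0.98 on the log2 scale (SE 0.214), with an adjusted p of 0.00175 that missed the threshold when the lines were pooled as 1 group. With the lines as separate groups the difference was -1.05 and the adjusted p was 2.91e-10. ALDH1A1, the other aldehyde dehydrogenase chosen (chr9:72900671-73080442, minus strand), had at most 1 read in any library and 7 reads in all, and was not tested. Its level was at or below the limit of detection in every group.

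CRABP2, the carrier of retinoic acid (chr1:156699606-156705816, minus strand), was lower in myrAKT than in WT. WT libraries had 4.46, 4.84 and 4.55 CPM and myrAKT libraries 2.05, 2.92 and 2.26 CPM, without overlap. The log2 difference was -0.95 (SE 0.150, adjusted p = 9.63e-05). In treated knockout libraries CRABP2 was 0.73 lower than in WT on the log2 scale (SE 0.110, adjusted p = 1.32e-04), but without WT replicate 2 the adjusted p was 0.00133.

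The lines differed in CRABP2 before treatment and not detectably after it. KO1 had 3.51, 3.35 and 4.15 CPM and KO2 had 2.09, 1.96 and 2.07 CPM, a log2 difference of 0.83 (SE 0.133, adjusted p = 1.22e-04). Without KO1 replicate 3 the adjusted p was 0.00125 and the call was lost. With MK2206, KO1 had 2.87, 3.12 and 2.96 CPM and KO2 had 2.42, 2.92 and 2.55 CPM, a log2 difference of 0.17 (95% interval -0.16 to 0.50, adjusted p = 0.476). The drug effect was -0.27 in KO1 (adjusted p = 0.116) and 0.38 in KO2 (adjusted p = 0.0467), and the difference between these effects, -0.66 (SE 0.188), had an adjusted p of 0.273.

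CYP26B1, which breaks retinoic acid down (chr2:72129238-72147862, minus strand), differed least between WT and the untreated knockout lines among the 8 tested genes, with a log2 difference of -0.09. WT libraries had 30.7, 32.2 and 30.6 CPM, KO1 30.2, 29.6 and 29.1, and KO2 31.9, 28.4 and 28.7 CPM. It was higher with membrane-anchored AKT1, at 37.4, 38.4 and 36.2 CPM (log2 difference 0.25, SE 0.0497, adjusted p = 5.95e-04). It was also higher with MK2206, at 33.0, 33.9 and 35.2 CPM in KO1 and 37.7, 38.2 and 37.1 CPM in KO2 (log2 difference 0.29, SE 0.0447, adjusted p = 9.80e-05). Both differences passed the adjusted threshold and were below 1.5-fold, and in both all libraries of the higher group were above all of the lower. Over the alternatives the adjusted p in myrAKT reached 0.0212, so that its pass of the threshold was not kept, while with MK2206 it stayed at or below 8.34e-04.

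RARA (chr17:40309180-40357643, plus strand) and RARG (chr12:53210567-53232980, minus strand) were the abundant retinoic acid receptors, and RARA was lower after AKT inhibition. WT libraries had 41.4, 45.0 and 44.1 CPM of RARA, KO1 40.7, 39.0 and 41.8, and KO2 35.3, 35.0 and 36.8 CPM. With MK2206 RARA was at 26.8, 26.9 and 29.4 CPM in KO1 and at 24.8, 25.6 and 26.1 CPM in KO2. Every treated library was below every untreated library. The log2 difference was -0.50 (SE 0.0527, adjusted p = 3.84e-06), a 1.41-fold lower level short of the 1.5-fold minimum, with -0.52 in KO1 and -0.47 in KO2. Against WT, treated libraries were lower by 0.72 (SE 0.0562, adjusted p = 9.83e-07), which passed both thresholds.

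RARA in myrAKT was 36.8, 36.8 and 36.5 CPM (log2 difference from WT -0.25, SE 0.0497, adjusted p = 6.63e-04), and the adjusted p reached 0.00603 over the alternatives. RARA-AS1 shares 11.72% of the RARA exon bases on the opposite strand and had 14 to 81 counts against 643 to 1638 for RARA.

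RARG had 69.8, 73.5 and 73.6 CPM in WT, 36.3, 38.7 and 35.1 in KO1 and 26.8, 26.8 and 29.8 in KO2. The log2 difference of the knockout lines from WT was -1.18, given as a description. In myrAKT RARG had 52.8, 58.3 and 51.8 CPM, between WT and the knockout lines and overlapping neither. The difference from WT was -0.42 (SE 0.0509, adjusted p = 7.54e-06) and short of 1.5-fold.

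With MK2206 RARG was at 29.9, 33.8 and 34.5 CPM in KO1 and at 25.3, 23.7 and 24.4 CPM in KO2. The log2 difference was -0.15 over both lines (95% interval -0.40 to 0.10, adjusted p = 0.304). That fit does not separate the lines, which differed in RARG. Within each line all treated libraries were below all untreated ones, with log2 changes of -0.14 in KO1 and -0.16 in KO2. Over the alternatives the adjusted p over both lines ran from 0.00171 to 0.542 and never passed the threshold. Treated knockout libraries were 1.35 below WT on the log2 scale (SE 0.108, adjusted p = 1.17e-06), a 2.54-fold lower level. KO1 exceeded KO2 by 0.39 (SE 0.0522, adjusted p = 2.08e-05) without the drug and by 0.41 (SE 0.0601, adjusted p = 5.32e-04) with it, both below 1.5-fold, and the second adjusted p reached 0.00631 over the alternatives.

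RARB (chr3:24687887-25597932, plus strand), whose promoter window holds the repeat printed above, was low in all groups and reached 1 CPM in 7 libraries, 3 of WT, 2 of myrAKT and 1 of each treated line. WT libraries had 47, 43 and 50 reads, KO1 18, 28 and 25, KO2 29, 32 and 24, and myrAKT 31, 45 and 90. Treated libraries had 25, 21 and 20 reads in KO1 and 19, 36 and 29 in KO2. The knockout lines averaged 0.706 CPM against 1.30 in WT (log2 difference -0.90, a description). In myrAKT the log2 difference was 0.28 (95% interval -0.32 to 0.89, adjusted p = 0.417), and without myrAKT replicate 3, the library with 90 reads, it was -0.15. RARB was not called in myrAKT against WT, with MK2206, between the lines or in treated knockout against WT.

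RARRES1 (chr3:158696892-158732489, minus strand), known as a retinoic acid receptor responder, had 6 to 29 reads per library and was not tested. Its group means lay between 0.357 CPM in WT and 0.511 CPM in KO2+MK, and all groups overlapped. MFSD1, on the opposite strand, shares 14.39% of its exon bases and had 1206 to 2221 counts.

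**Figure D3:**
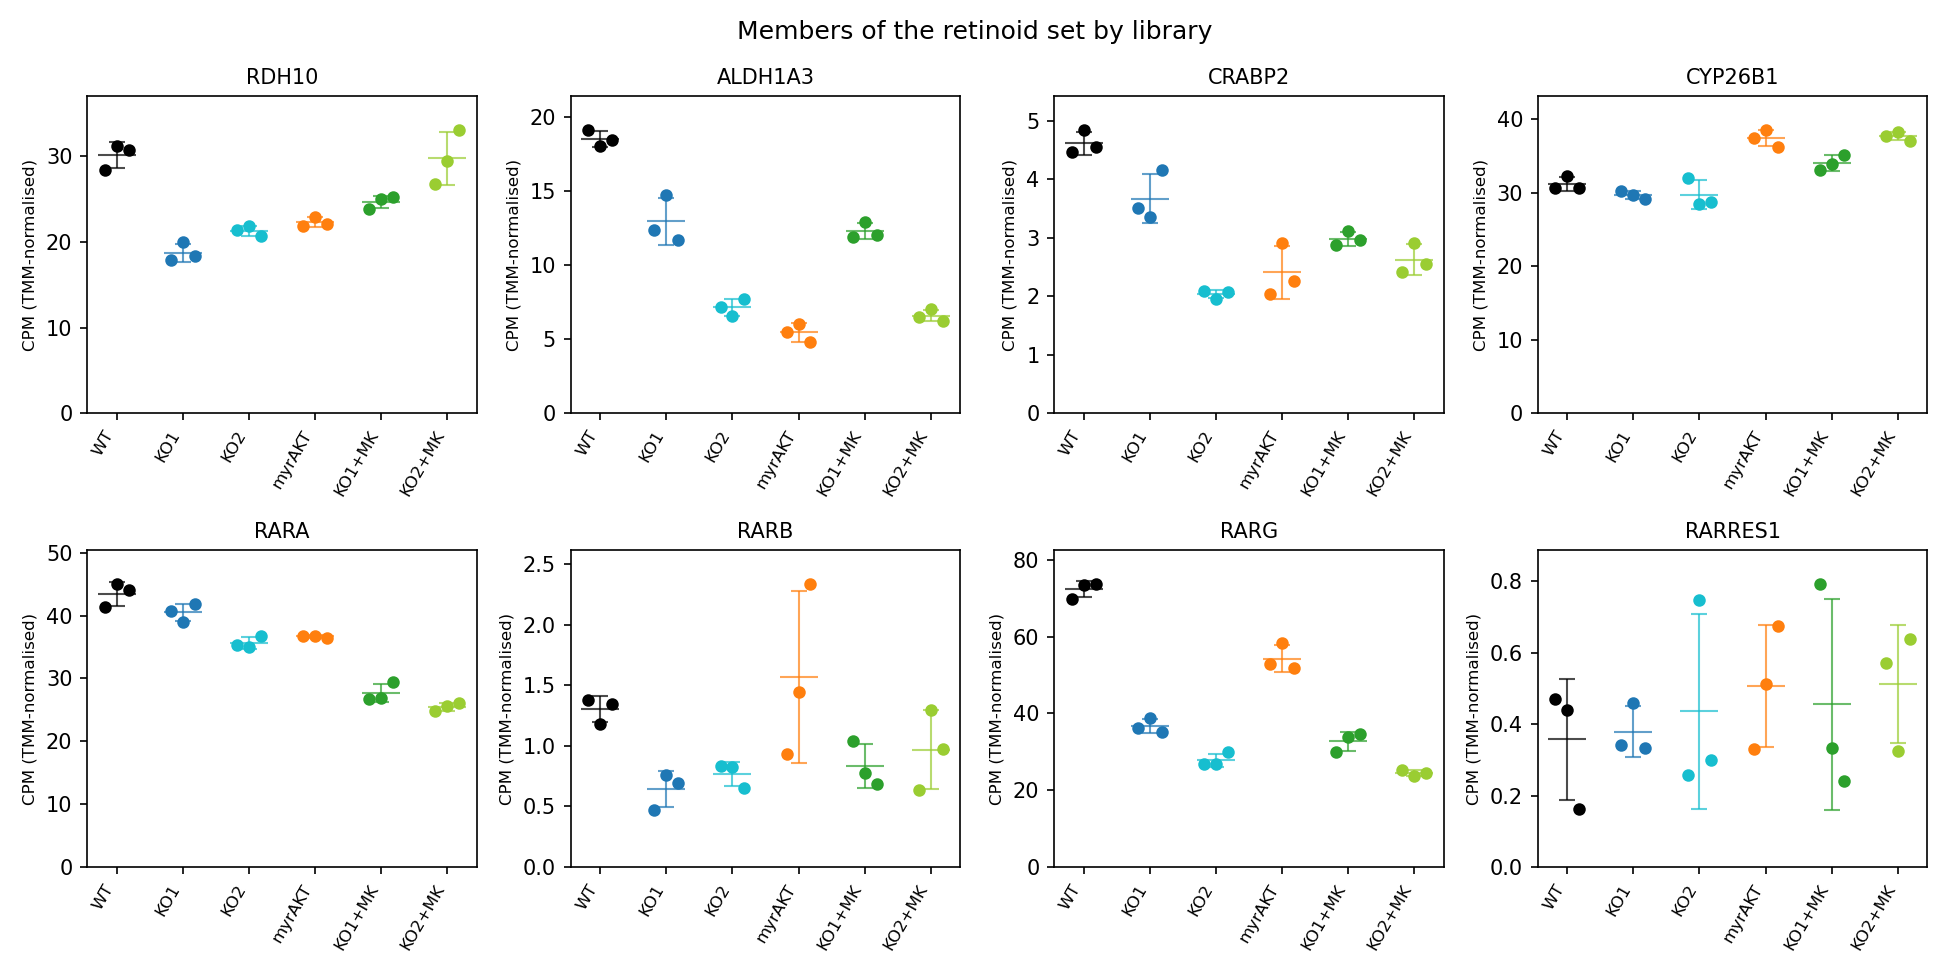
CPM of 8 genes in each of the 18 libraries, with the mean and SD of 3 libraries per group; each vertical axis starts at 0 and has its own range. RARA is lowest in the treated libraries (24.8 to 29.4 CPM), RARG is highest in WT (69.8 to 73.6 CPM), and ALDH1A3 and RARG are lower in KO2 than in KO1.

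Over the list, 8 of the 10 genes passed the filter and could be called. A call needed both an adjusted p no higher than 0.001 and a change of 1.5-fold or more. In the comparison that chose the genes 12.7% of all tested genes met this rule, as did 3 of the chosen ones, which describes the choice and supports nothing. DHRS3, which had to differ from WT, is left out of the counts and medians against WT that follow. In myrAKT against WT 2 of the 7 other tested genes were called, both lower (ALDH1A3 and CRABP2), against 13.8% of all genes. By adjusted p alone 6 of the 7 passed, 5 lower and 1 higher, against 30.0% of all genes, and of these CYP26B1 and RARA did not pass under every alternative. The median log2 difference of the 7 was -0.42, and that of all tested genes was 0.02.

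With MK2206, edgeR called 0 of the 8 genes over both lines, where 6.53% of all genes were called, and 3 had an unadjusted p below 0.05. It called 0 in KO1 (5.01% of all genes, 4 with an unadjusted p below 0.05) and 0 in KO2 (7.06%, 5 with an unadjusted p below 0.05), and DESeq2 also called 0 in each of these comparisons. By adjusted p alone, 3 passed over both lines (RDH10 and CYP26B1 higher, RARA lower) against 21.5% of all genes, 2 passed in KO1 (RDH10 and RARA) against 19.2%, and 3 in KO2 against 21.9%. The median log2 change over both lines was 0.03 for the 8 genes and -0.0031 for all tested genes. The drug effects of the lines differed for 0 of the 8 genes and for 0 of all tested genes (0%) by edgeR, with CRABP2 the 1 gene of the 8 at an unadjusted p below 0.05. Over all tested genes 1251 had an unadjusted p below 0.05, and DESeq2 called 5, none of them among the 8.

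Between the untreated lines 2 of the 8 genes were called, both higher in KO1 (ALDH1A3 and CRABP2), against 2.62% of all genes, and by adjusted p alone 3 passed (RARG the third) against 12.6%. Between the treated lines 1 was called (ALDH1A3), against 1.64%, and 2 passed by adjusted p alone (ALDH1A3 and RARG), against 4.95%. Treated knockout libraries against WT called 3 of the 7 genes other than DHRS3, all lower (CRABP2, RARA and RARG), against 15.0% of all genes. By adjusted p alone the number was again 3, against 32.0%. The median log2 difference was -0.72 for the 7 genes and 0.0042 for all tested genes.

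**Figure D4:**
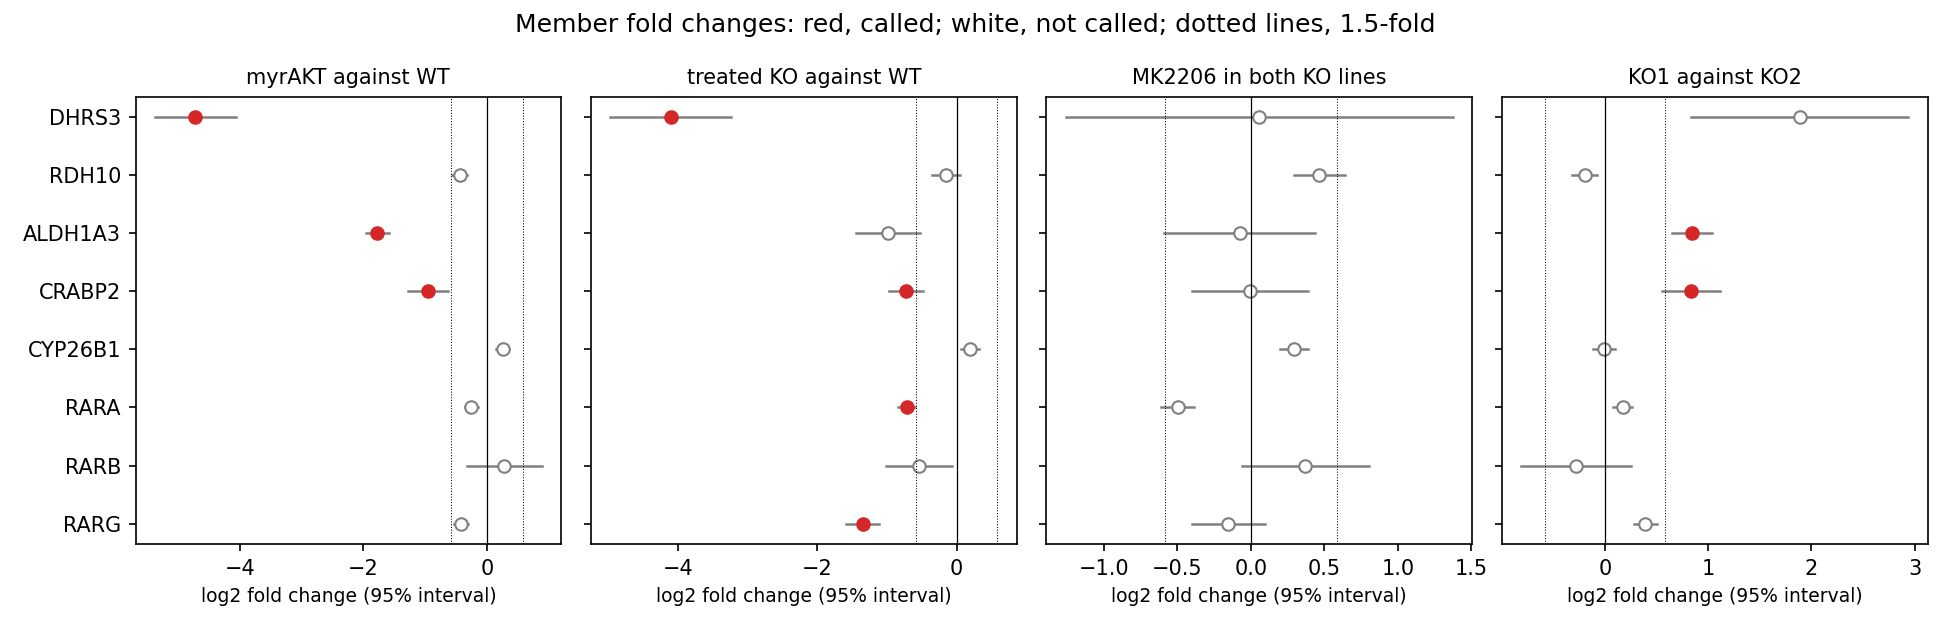
Log2 fold change of the 8 tested genes with its 95% interval in 4 comparisons, each with its own horizontal range; filled points were called and open points were not, and dotted lines mark a 1.5-fold change. In myrAKT, ALDH1A3 (-1.77) and CRABP2 (-0.95) were called; DHRS3 (-4.72) is filled too, but it entered the fit through WT alone and had to differ from it. With MK2206 no point is filled.

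The partners of these receptors, the retinoid X receptors, were present as RXRA and RXRB. RXRA averaged 104 ± 8.01 CPM in WT, 120 ± 3.24 in myrAKT, 80.9 ± 1.31 in KO1 and 96.1 ± 2.02 in KO2 (SD, n = 3), and 68.1 ± 5.45 in KO1+MK and 75.9 ± 2.95 in KO2+MK. Against WT, treated knockout libraries had a log2 difference of -0.54 (adjusted p = 3.64e-05), short of 1.5-fold. RXRB averaged 55.6 CPM in the untreated knockout libraries and 66.5 CPM in the treated ones (log2 difference 0.28, adjusted p = 1.30e-05). RXRG had 0 counts in every library.

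Of 42 other genes of the retinoid pathway, 17 were tested. In myrAKT 3 were called, all lower, against 13.8% of all genes. They were CYP1B1, a cytochrome P450 that can oxidise retinol (18.5 ± 0.696 CPM in WT, 8.04 ± 0.376 in myrAKT, log2 difference -1.20, adjusted p = 7.42e-09), the retinol dehydrogenase SDR16C5 (6.09 ± 0.148 and 2.81 ± 0.131 CPM, log2 difference -1.13, adjusted p = 1.43e-06) and the retinal reductase DHRS4 (6.03 ± 0.615 and 4.02 ± 0.377 CPM, log2 difference -0.59, adjusted p = 8.24e-04). The call of DHRS4 was lost when any 1 of the 6 libraries was left out, with the replicate block (adjusted p = 0.00180) and with library totals in place of TMM (adjusted p = 0.00173). The median log2 difference of the 17 was -0.06. SDR16C5 was also higher in KO1 (5.48 ± 0.480 CPM) than in KO2 (3.40 ± 0.238 CPM), by 0.68 on the log2 scale (adjusted p = 1.41e-04), and that call was lost without KO1 replicate 1 or KO2 replicate 1. With MK2206 0 of the 17 were called, against 6.53% of all genes (7 with an unadjusted p below 0.05, 0 by DESeq2), and treated knockout libraries against WT also called 0, against 15.0% of all genes (13 with an unadjusted p below 0.05, 0 by DESeq2).

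Of 28 genes known to respond to retinoic acid, 14 were tested. In myrAKT 4 were called, against 13.8% of all genes. ICAM1, a leukocyte adhesion molecule, averaged 108 ± 3.14 CPM in WT and 9.66 ± 1.07 in myrAKT, an 11.3-fold lower level (log2 difference -3.49, adjusted p = 6.12e-14). NRIP1, a corepressor of nuclear receptors, averaged 156 ± 1.77 and 47.0 ± 1.10 CPM (log2 difference -1.73, adjusted p = 7.27e-13). IGFBP3, a binding protein for insulin-like growth factors, was higher in myrAKT, at 31.5 ± 0.397 against 17.1 ± 0.806 CPM (log2 difference 0.88, adjusted p = 1.57e-08). ICAM1 and NRIP1 were also higher in KO1 than in KO2, by 2.19 (adjusted p = 1.28e-11) and 0.87 (adjusted p = 1.52e-09) on the log2 scale, and were the 2 genes of the list called between the untreated lines, against 2.62% of all genes.

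MK2206 called 3 of these 14 genes over both lines, against 6.53% of all genes. BTG2, an antiproliferative gene, rose from 1.94 to 4.51 CPM (log2 change 1.24, adjusted p = 2.10e-07). The homeobox genes HOXB4 (1.32 to 0.558 CPM, log2 change -1.22, adjusted p = 3.10e-05) and HOXB3 (5.70 to 3.55 CPM, log2 change -0.66, adjusted p = 2.14e-04) fell. All 3 were called in KO2, whereas in KO1 BTG2 was called and HOXB4 (log2 change -1.16, adjusted p = 0.00242) and HOXB3 (-0.58, adjusted p = 0.00390) were not. By edgeR the drug effects of the lines differed for 0 of the 14 genes (3 with an unadjusted p below 0.05, 0 by DESeq2). These counts per line were not stable, since in KO2 DESeq2 called 2 of the 14 and leaving out KO2 replicate 3 or KO2+MK replicate 2 left 1, while in KO1 2 were called with all 18 libraries in one fit or without KO1+MK replicate 1. Treated knockout libraries against WT called 9, of which 7 were lower and 2 higher, against 15.0% of all genes. HOXB4 (log2 difference -2.13, adjusted p = 1.30e-06), PLAAT4 (-2.05, adjusted p = 1.10e-04), a phospholipase-type acyltransferase, and HOXB3 (-1.85, adjusted p = 5.21e-07) had the largest differences. PLAAT4 missed the adjusted threshold without WT replicate 2 (0.00110) or WT replicate 3 (0.00113). The median log2 difference of the 14 was -0.80 in that comparison and -0.23 in myrAKT against WT.

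**Figure D5:**
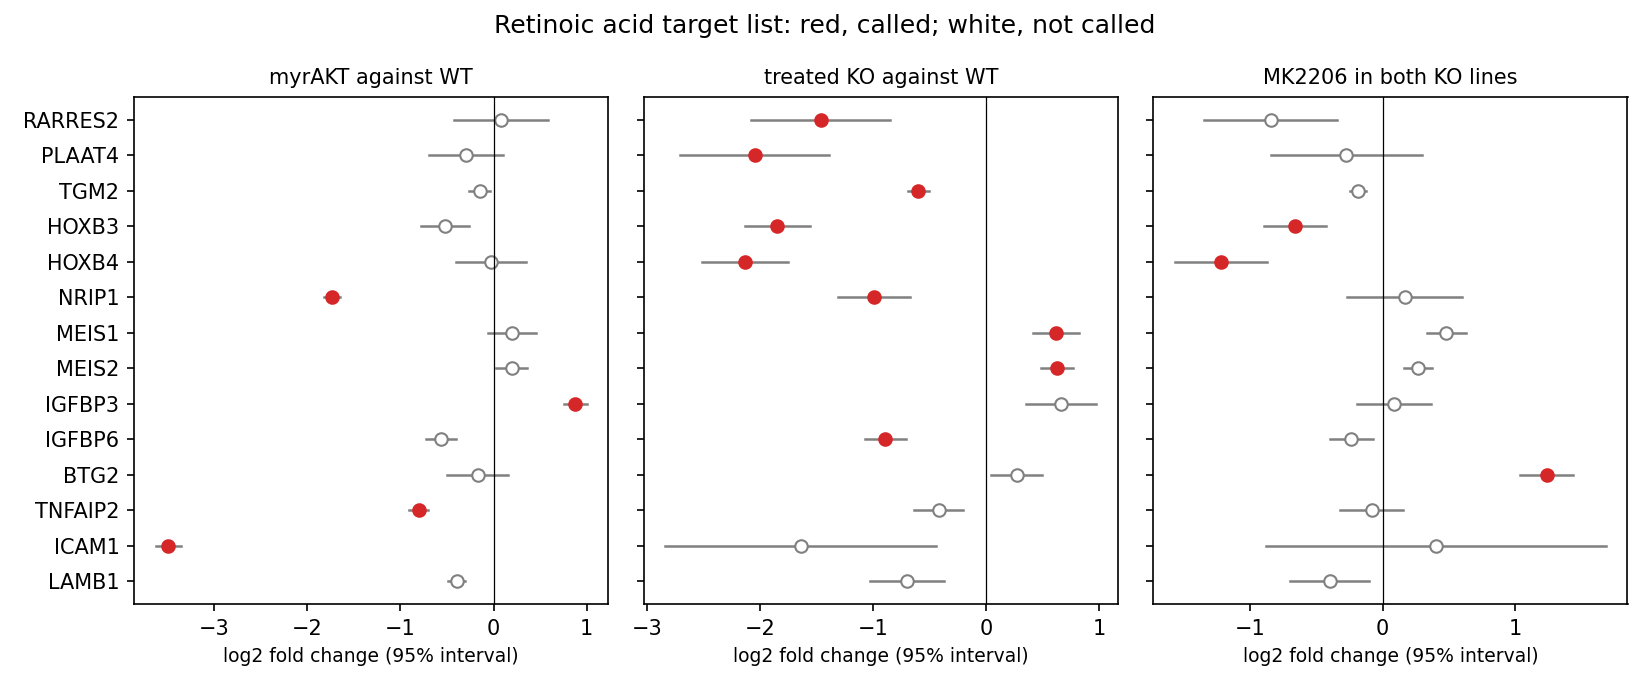
Log2 fold change of the 14 tested retinoic acid target genes with its 95% interval in 3 comparisons, each with its own horizontal range; filled points were called. ICAM1 (-3.49) and NRIP1 (-1.73) stand lowest in myrAKT, and HOXB4 (-2.13) and PLAAT4 (-2.05) in the treated knockout libraries.

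The genes whose log2 CPM followed that of DHRS3 most closely over the 18 libraries, among 12901 genes averaging 100 or more counts in some group, were the kinase gene STK39 (Pearson r = 0.990), SEL1L3 (0.983), the kinesin gene KIF21B (0.983), PLAT (0.983), which encodes tissue plasminogen activator, and the collagen galactosyltransferase gene COLGALT2 (0.978). These values describe libraries that fall into WT and the rest, and they were 0.969, 0.924, 0.928, 0.937 and 0.931 over the 15 libraries other than WT. In DHRS3 those 15 fall into blocks again, with 8 to 11 reads in KO1 and KO1+MK and 1 to 5 in KO2, myrAKT and KO2+MK. The 5 genes were also picked by r over libraries that include these 15. STK39 averaged 75.9 CPM in WT, 55.1 in KO1, 48.3 in KO2, 48.8 in myrAKT, 56.3 in KO1+MK and 45.6 in KO2+MK. In PLAT the range was wider, from 334 CPM in WT to 92.6 CPM in KO2+MK, with 168 CPM in KO1 and 101 in KO2. Ranked by Spearman's rho instead, 3 of the 5 genes were shared. Of the other chosen genes, ALDH1A3 (r = 0.869), CRABP2 (0.846) and RARG (0.774) were the nearest to DHRS3, at ranks of only 355, 445 and 838 among the 12901 genes.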

How the data were processed

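The authors deposited raw read counts per Ensembl gene, with no normalization applied. Per the submitters' processing notes and the paper's methods, reads were handled with FastQC, Trim Galore, HISAT2 on hg38 and featureCounts. The tool versions, annotation and strand setting are not given in the sources used here. Libraries were depleted of ribosomal RNA, and depth ranged from 23419198 to 39319910 counted reads, with the treated libraries the shallowest. A gene was tested if 3 or more of the 18 libraries reached 1 CPM, which kept 15587 genes.

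Groups were taken from the sample labels. Comparisons used edgeR 4.0.16 in R 4.3.3 (TMM normalization, quasi-likelihood test over all tested genes, two-sided, Benjamini-Hochberg adjustment) on the libraries of the groups compared, and a call needed an adjusted p of at most 0.001 and at least 1.5-fold change. The KO1 and KO2 libraries were pooled as 1 group unless the lines are named. DESeq2 1.42.0 was an alternative. Standard errors are the absolute log2 fold change divided by the root of its F statistic. The 95% intervals use the total degrees of freedom of the quasi-likelihood fit, residual plus prior. The levels are TMM-scaled CPM, and log2 CPM used a prior count of 2. GENCODE release 44 gave symbols, positions and exon lengths, with a symbol for 41445 and a position for 56948 of the 57448 identifiers. The scripts were tested on simulated counts. Replicates of a group did not agree within sampling noise, since the chi-square of a pair averaged over genes was 2.26 to 11.6. Same-numbered replicates did not deviate together (correlations -0.233 to 0.209), so no pairing was used.

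The genes and lists were chosen with earlier results of these data known. The text names all 10 chosen genes, GPS2 and AKT1 as checks of the labels, the retinoid X receptors and the 5 genes most like DHRS3. From each list, up to 3 called genes with the largest change are named for myrAKT, MK2206 over both lines, the untreated lines and treated knockout. Between the treated lines 1 gene of each list was called, against 1.64% of all genes, and is not named. The comparison of the treated lines was added after the data were seen. All comparisons against WT share the same 3 WT libraries, and the MK2206 comparisons share the untreated knockout libraries with the choice of genes.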

Additional observations from a re-analysis of the deposited data

Results flagged for a closer look

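ALDH1A3 differed between the untreated knockout lines by 0.84 on the log2 scale (KO1 higher, adjusted p = 1.98e-06) and between the treated lines by 0.89 (adjusted p = 1.92e-05), a difference between lines that were targeted at the same gene, with KO1 above KO2 in 3 of 3 libraries each time.

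CRABP2 differed between the untreated lines by 0.83 (KO1 higher, adjusted p = 1.22e-04). It moved in opposite directions with MK2206, as all 3 treated KO1 libraries were below all untreated ones and all 3 treated KO2 libraries above, but the difference of these drug effects, -0.66, did not pass the adjusted test (adjusted p = 0.273).

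ALDH1A1 had 1 library of 6 untreated knockout libraries, in KO1, apart from the others at 0.0264 CPM, which is a single read. In all 20 sets of 6 libraries were examined in this way. The limit used is one that about 1 in 20 sets is meant to pass by chance, and that rate was not measured for counts this low.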

How the results depend on the processing

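The DHRS3 log2 difference of myrAKT from WT ranged from -4.76 to -4.68 over other settings and from -4.98 to -4.48 when 1 library was left out, and that of treated knockout from WT from -4.63 to -4.10 and from -4.47 to -3.88, in fits that all rest on the same WT libraries. Where at least 10 counts were required in every library, DHRS3 remained in KO1 against WT alone and left the table in the other comparisons. With 1 library left out, the described DHRS3 difference from WT ranged from -3.64 to -3.36 in KO1, from -5.79 to -4.98 in KO2 and from -4.37 to -3.91 over both lines. After MK2206 over both lines its sign was not settled: it was -0.20 with all 18 libraries in 1 fit, -0.18 with the lines as separate groups, and -0.31 to 0.28 with 1 library left out. In treated KO1 against treated KO2 it was 2.73 and called with all 18 libraries in 1 fit.

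The counts of chosen genes called that follow include DHRS3, which had to differ from WT. In knockout against WT, the comparison that chose the genes, the count is a description: it was 3 (12.7% of all tested genes), 5 with all 18 libraries in 1 fit (15.8%), 6 with the lines as separate groups (16.0%) and 2 to 4 with 1 library left out (9.74% to 13.1%). Without a minimum fold change the count was 7 in myrAKT against WT (6 without DHRS3, 30.0% of all genes). With MK2206 it was 3 over both lines (21.5%), 2 in KO1 (19.2%) and 3 in KO2 (21.9%). Between the treated lines it was 2 (4.95%), and all 18 libraries in 1 fit with the minimum kept also gave 2 (2.36%). Leaving out 1 library gave 1 to 2 between the untreated lines (2.12% to 2.72% of all genes). ALDH1A3 in treated knockout against WT was called with DESeq2 (adjusted p = 3.40e-05), with all 18 libraries in 1 fit, with the lines as separate groups, with any gene of at least 1 count, and without KO1+MK replicate 2.

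Values near 0 that were never called changed sign. CRABP2 with MK2206 over both lines was 0.014 with library totals, 0.033 with all 18 libraries in 1 fit, 0.054 with the lines as separate groups and -0.091 to 0.13 with 1 library left out. CYP26B1 in KO1 against KO2 was 0.033 with any gene of at least 1 count, 0.00018 with all 18 libraries in 1 fit and -0.037 to 0.042 with 1 library left out. With 1 library left out, ALDH1A3 with MK2206 ranged from -0.19 to 0.065 over both lines and from -0.12 to 0.051 in KO1, RARB in myrAKT from -0.15 to 0.54 and between treated lines from -0.46 to 0.031, and the differences of drug effect of ALDH1A3 from -0.014 to 0.16, of RARB from -0.19 to 0.30 and of RARG from -0.024 to 0.067.

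Groups share replicate numbers, but same-numbered libraries did not deviate together, as 7 of 24 correlations exceeded 0.1. With the replicate block the number of chosen genes called stayed at 3 in myrAKT against WT (2 without DHRS3, 13.5% of all genes) and 4 in treated knockout against WT (3 without DHRS3, 12.4%). It stayed at 2 in KO1 against KO2 (3.15%) and 0 with MK2206 over both lines (5.75%), while the call of DHRS4 in myrAKT was lost. The causes of these shifts were not tested. Depth limits DHRS3, RARB, RARRES1 and ALDH1A1, which held few reads outside WT or anywhere.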
